A study of Mus musculus with 20 samples.

Results

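The genes described here make cholesterol or control its synthesis. The list names 26 genes, and its members are the spots, other than controls, that carry one of these names: 8 genes of the mevalonate and isoprenoid steps, 11 of the squalene and sterol steps, and 7 of the control of SREBP2 and of sterol transport. On the arrays, 25 of the 26 had a spot, and all 25 were tested, against 25618 gene names tested in all. Acat2, an acetyl-CoA acetyltransferase at the entry of the pathway, has no spot under that name. The members are carried by 57 probes, of which 56 passed the filter on dim probes. Their signal was read in the visceral fat of 20 C57bl/6J males of the F3 generation, with 1 Agilent array of 1 colour per mouse.

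The 3 groups differ in the oil given to the lineage and in the last diet. The 6 Ref mice (STD Cont) came from the oleic lineage, in which the growing diet held high-oleic sunflower oil as control fatty acid, and they then ate a low-fat diet. The 6 HFoleic mice (HFD Cont) came from that same lineage and ate a high-fat, high-sucrose diet. The 8 HFepa mice (HFD O3) ate the same high-fat diet and came from the lineage that had been given fish oil rich in EPA, an n-3 polyunsaturated fatty acid, through its generations. The mice were killed while fasted. None of the groups holds mice of the EPA lineage on the low-fat diet, so HFepa vs. Ref differs in diet and in lineage together. The tissue was the epididymal fat pad in bulk, in which fewer cells of a type and less RNA per cell cannot be told apart. Only RNA above a limit of integrity was put on arrays, per the methods of the study. The labels do not tell which mice were littermates.

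Cells make cholesterol from acetyl-CoA through mevalonate, isoprenoids and squalene, which is closed into lanosterol and then trimmed to cholesterol. When the membrane of the endoplasmic reticulum holds little sterol, the protein SCAP carries the transcription factor SREBP2 to the Golgi, where the proteases encoded by Mbtps1 and Mbtps2 release its active fragment. That fragment switches on most enzymes of the pathway and also Insig1, whose product holds SCAP back when sterol is plentiful. Adipose tissue is a large store of cholesterol, much of it in the fat droplets of adipocytes, and macrophages that take up lipid also handle large amounts of it.

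The windows upstream of the genes are shown first, as a description of the members. RefSeq windows of 250 bases before to 50 bases after a start site (GRCm38.p6) were held for 22 of the 26 members, with several start sites for some. Each was searched on both strands for TCACNCCAC, a form of the sterol regulatory element that SREBP binds, CCAAT, which NF-Y binds, GGGCGG, the GC box of Sp1, and CACGTG, an E-box. Matches are in capitals. In the windows printed, no match overlaps a match of another motif.
Insig1, chr5:28071162-28071461, plus strand: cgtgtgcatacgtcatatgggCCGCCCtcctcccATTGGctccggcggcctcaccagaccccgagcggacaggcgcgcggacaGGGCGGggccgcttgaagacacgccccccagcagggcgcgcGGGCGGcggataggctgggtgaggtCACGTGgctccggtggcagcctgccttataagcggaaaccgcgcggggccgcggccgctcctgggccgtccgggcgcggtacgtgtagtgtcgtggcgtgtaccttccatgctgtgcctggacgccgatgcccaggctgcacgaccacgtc
Hsd17b7, chr1:169969156-169969455, minus strand: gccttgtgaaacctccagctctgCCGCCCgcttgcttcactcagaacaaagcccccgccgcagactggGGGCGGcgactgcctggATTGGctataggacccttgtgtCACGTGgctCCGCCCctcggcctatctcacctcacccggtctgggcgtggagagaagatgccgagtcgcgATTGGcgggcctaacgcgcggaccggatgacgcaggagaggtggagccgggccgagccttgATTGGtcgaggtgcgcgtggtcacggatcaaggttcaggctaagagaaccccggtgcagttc
Lss, chr10:76531355-76531654, plus strand: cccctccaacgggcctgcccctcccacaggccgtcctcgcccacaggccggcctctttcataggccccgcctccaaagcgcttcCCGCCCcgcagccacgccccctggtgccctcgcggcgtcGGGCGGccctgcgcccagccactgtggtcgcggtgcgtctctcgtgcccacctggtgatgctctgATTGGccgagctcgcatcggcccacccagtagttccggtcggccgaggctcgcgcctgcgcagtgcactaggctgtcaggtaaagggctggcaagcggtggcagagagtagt
Hmgcs1, chr13:119690101-119690400, plus strand: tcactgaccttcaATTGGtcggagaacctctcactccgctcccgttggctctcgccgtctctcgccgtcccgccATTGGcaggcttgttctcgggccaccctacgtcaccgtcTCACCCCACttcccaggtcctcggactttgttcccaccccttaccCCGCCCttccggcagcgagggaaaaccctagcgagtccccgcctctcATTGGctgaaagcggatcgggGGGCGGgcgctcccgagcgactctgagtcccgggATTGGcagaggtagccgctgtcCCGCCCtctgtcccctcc
Insig2, chr1:121327975-121328274, minus strand: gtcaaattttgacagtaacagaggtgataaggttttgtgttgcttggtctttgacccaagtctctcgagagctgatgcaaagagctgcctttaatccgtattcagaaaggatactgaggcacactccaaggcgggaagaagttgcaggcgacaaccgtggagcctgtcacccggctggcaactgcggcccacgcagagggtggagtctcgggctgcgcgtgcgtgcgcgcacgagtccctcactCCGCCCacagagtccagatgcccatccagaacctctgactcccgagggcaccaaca
Insig2, a start site farther upstream, chr1:121332540-121332839, minus strand: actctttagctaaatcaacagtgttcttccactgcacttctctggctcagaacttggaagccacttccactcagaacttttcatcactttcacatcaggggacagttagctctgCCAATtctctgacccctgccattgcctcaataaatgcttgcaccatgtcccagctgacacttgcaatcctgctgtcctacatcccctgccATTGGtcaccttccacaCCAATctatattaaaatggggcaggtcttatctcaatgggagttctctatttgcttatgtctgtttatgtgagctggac

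Insig1, Hsd17b7 and Lss are shown as members that rose, Insig2 as the member that fell, and Hmgcs1 as the only member of the 22 with the letters TCACNCCAC, which start at base -137 before its start site. In all, 1.44% of the 27025 genes in the table hold these letters in a window. A CCAAT was present for 18 of the 22 members and for 41.1% of all genes. A GC box was present for 19 of the 22 and for 38.2% of all genes, and an E-box for 5 of the 22 and for 8.09% of all genes. Of the 12 members that rose in HFoleic mice, 11 have a window, and all 11 hold both a CCAAT and a GC box in a window of the gene. Among the 9 members with a window that passed no test, 6 hold a CCAAT and 6 a GC box. Insig2 has 3 windows: 2 of them hold a GC box and no CCAAT, and the one farthest upstream holds 3 CCAAT and no GC box. A match of letters is a description and not a site of binding.

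The arrays were alike in signal. The median signal of a spot was 83 to 114 in arbitrary units, 66.1% to 71.9% of the spots were well above background, and no spot was saturated. The log2 signals of any 2 arrays correlated at 0.960 to 0.996 across probes. The precision of every value is limited by the number of mice. Adipocyte markers were high in every mouse, with a mean log2 signal over 10 genes of 16.51 to 17.26, as the labelled tissue should have. In 4 mice, Ref 3, Ref 6, HFoleic 5 and HFepa 4, markers of the testis, which lies near this fat pad, stood out: the mean log2 signal over 4 testis markers was 8.10 to 9.06 there and 5.86 to 6.60 in the other 16. With these 4 mice left out, an alternative chosen after seeing the data, 12 members were called in HFoleic vs. Ref in place of 13, where 18.1% of all genes were called. None was called in HFepa vs. Ref, in place of 1, or in HFepa vs. HFoleic, and neither was any other gene in these fits. Markers of other tissues still varied among the 16 mice kept. The mean log2 signal over 2 epididymis markers ran from 7.35 in HFoleic 7 to 9.50 in HFepa 2. Over 6 liver markers it ran from 7.21 in Ref 4 to 12.53 in HFoleic 6. No mice were left out by these lists.

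In HFoleic mice compared to Ref mice, 12 of the 25 members were higher and 1 was lower (limma, adjusted p under 0.05). Over all genes tested, 15.2% were higher and 16.7% lower in this comparison, together 31.8%. The median log2 fold change of the 25 members was 0.32, against -0.04 over all genes tested. Called and uncalled enzymes lay side by side along the pathway. Higher were 4 of the 7 tested mevalonate and isoprenoid enzymes and 7 of the 11 squalene and sterol enzymes. None of these 18 enzymes was called lower, apart from Ggps1 in the fit with the slide as a block. Of the 7 genes of SREBP2 control and sterol transport, Insig1 was higher and Insig2 was lower, and the other 5 did not pass the test. For 9 members every HFoleic mouse lay above every Ref mouse, while 14.0% of all genes tested had groups that do not overlap. In HFepa mice compared to Ref mice 1 member was called, Hsd17b7, and between HFepa and HFoleic mice none was called. The plot of all members by mouse shows these values.

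**Figure D1:**
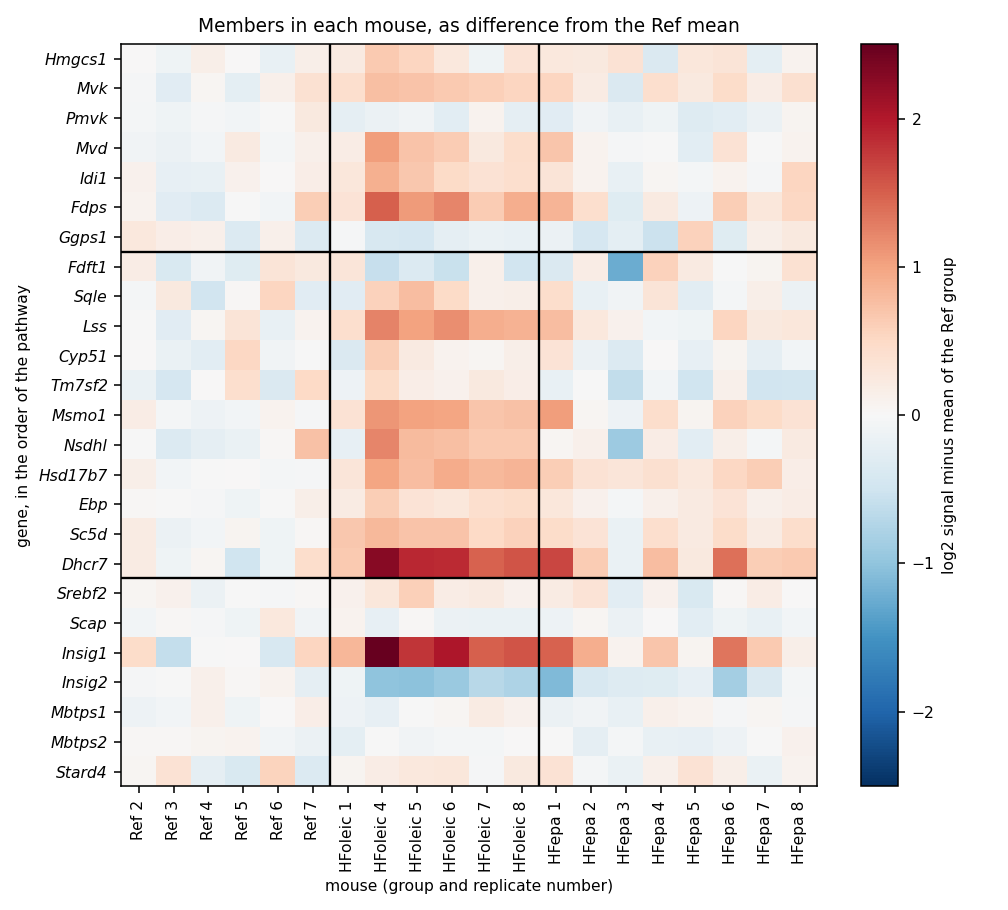
Signal of the 25 tested members in each of the 20 mice, as log2 signal minus the mean of the Ref group, with genes in the order of the pathway and lines between the 3 roles and the 3 groups. Red is higher and blue is lower than the Ref mean. Dhcr7 and Insig1 are the reddest rows in the HFoleic mice, and Insig2 is clearly blue in 5 of the 6. HFoleic 1 is paler than the rest of its group over most of the rows that rose. HFepa 3 lies above the Ref mean in 3 of those 12 rows.

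Values are log2 of the median signal after quantile normalization, so that a difference is the log2 of a fold change. They are comparable between mice for a gene and not between genes. Each gene is represented by its brightest tested probe. Among the mevalonate and isoprenoid enzymes, Fdps changed most. Fdps makes farnesyl diphosphate, the last intermediate shared by sterols and prenylated proteins. Its log2 signal ranged from 10.89 to 11.85 in Ref mice (median 11.20), from 11.59 to 12.74 in HFoleic mice (median 12.23) and from 10.93 to 12.10 in HFepa mice (median 11.60). Of the 6 HFoleic mice, 5 lay above every Ref mouse, and the HFepa mice overlapped with both groups. Fdps rose 1.93-fold in HFoleic vs. Ref (log2 fold change 0.95 ± 0.21, SE, adjusted p = 0.00229). The probe of Fdps shares a run of at least 20 bases with probes of 2 other gene names on the array, so its signal may hold that of near copies.

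Mvk, mevalonate kinase, had log2 signals of 11.77 to 12.42 in Ref mice (median 12.05), 12.47 to 12.81 in HFoleic mice (median 12.66) and 11.69 to 12.57 in HFepa mice (median 12.37). The HFoleic mice all lay above the Ref mice, and 5 of the 8 HFepa mice lay below every HFoleic mouse. The rise in HFoleic vs. Ref was 1.53-fold (log2 fold change 0.61 ± 0.13, SE, adjusted p = 0.00196). Mvd, which makes isopentenyl diphosphate by decarboxylation, had values of 7.57 to 7.96 in Ref mice (median 7.67), 7.91 to 8.76 in HFoleic mice (median 8.26) and 7.45 to 8.43 in HFepa mice (median 7.76). All but 1 of the HFoleic mice lay above the Ref mice. Its log2 fold change in HFoleic vs. Ref was 0.54 ± 0.15 (SE, adjusted p = 0.00895), and 0.46 with an adjusted p of 0.0929 without the 4 mice with high testis markers. Idi1, the isomerase of isopentenyl diphosphate, had values of 10.18 to 10.56 in Ref mice (median 10.45), 10.67 to 11.29 in HFoleic mice (median 10.84) and 10.20 to 10.93 in HFepa mice (median 10.46). HFoleic and Ref mice did not overlap for Idi1, and 6 of the 8 HFepa mice lay below every HFoleic mouse. Its log2 fold change was 0.52 ± 0.12 (SE, adjusted p = 0.00299).

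The other 3 tested enzymes of these steps did not pass the test. Hmgcs1, which joins acetyl-CoA and acetoacetyl-CoA ahead of mevalonate, changed by 0.32 on the log2 scale in HFoleic vs. Ref (adjusted p = 0.0749), and its second, dimmer probe by -0.32. It passed the test in a fit to the compared groups alone (adjusted p = 0.0496), without HFoleic 7 (adjusted p = 0.0229) and without HFepa 4 (adjusted p = 0.0463). With the mean of its probes the log2 fold change was 7.9e-05, and without HFoleic 4 it was 0.25 on the brighter probe. The files place both probes of Hmgcs1 on an unplaced piece of chromosome 13. Pmvk, the second kinase of mevalonate, had -0.14 (adjusted p = 0.167). Ggps1, which makes the geranylgeranyl group for prenylation and stands beside the road to sterols, had -0.24 (adjusted p = 0.272), and all 6 of its probes had a value below 0. With the slide as a block Ggps1 was called lower (-0.33, adjusted p = 0.0225).

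The largest change of an enzyme was that of Dhcr7, which saturates 7-dehydrocholesterol to give cholesterol. Its log2 signal ranged from 6.30 to 7.24 in Ref mice (median 6.77), from 7.45 to 9.07 in HFoleic mice (median 8.51) and from 6.63 to 8.47 in HFepa mice (median 7.44). Every HFoleic mouse lay above every Ref mouse, as did 6 of the 8 HFepa mice. Dhcr7 rose 3.08-fold in HFoleic vs. Ref (log2 fold change 1.62 ± 0.27, SE, adjusted p = 0.000552). Sc5d, the desaturase that acts just before Dhcr7, had values of 12.14 to 12.49 in Ref mice (median 12.26), 12.77 to 13.10 in HFoleic mice (median 12.98) and 12.12 to 12.74 in HFepa mice (median 12.66). The HFoleic mice lay above all mice of both other groups. The log2 fold change of Sc5d in HFoleic vs. Ref was 0.67 ± 0.10 (SE, adjusted p = 0.00032).

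Lss, which folds squalene epoxide into lanosterol, had values of 8.68 to 9.28 in Ref mice (median 8.97), 9.38 to 10.19 in HFoleic mice (median 9.91) and 8.85 to 9.71 in HFepa mice (median 9.20). HFoleic and Ref mice did not overlap. Lss rose 1.92-fold (log2 fold change 0.94 ± 0.15, SE, adjusted p = 0.000447). Msmo1, Nsdhl and Hsd17b7 act together to remove the methyl groups at carbon 4 of the sterol ring. Msmo1, the oxidase among them, ranged from 10.95 to 11.27 in Ref mice (median 11.03), from 11.44 to 12.17 in HFoleic mice (median 11.93) and from 10.93 to 12.12 in HFepa mice (median 11.47). It rose 1.76-fold in HFoleic vs. Ref (log2 fold change 0.81 ± 0.16, SE, adjusted p = 0.0012), with no overlap of the groups. Hsd17b7, the ketoreductase, had the smallest adjusted p of all members. Its log2 signal was 9.34 to 9.55 in Ref mice (median 9.39), 9.71 to 10.40 in HFoleic mice (median 10.24) and 9.58 to 10.03 in HFepa mice (median 9.79). Every mouse on the high-fat diet, of either lineage, lay above every Ref mouse. The log2 fold change was 0.78 ± 0.10 (SE, adjusted p = 0.000201) in HFoleic vs. Ref.

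Nsdhl is the dehydrogenase of the same step. Its values were 9.15 to 10.22 in Ref mice (median 9.41), 9.30 to 10.72 in HFoleic mice (median 10.20) and 8.58 to 9.72 in HFepa mice (median 9.58), and the 3 groups overlapped. Its log2 fold change in HFoleic vs. Ref was 0.65 ± 0.22 (SE, adjusted p = 0.0306). Of the 20 fits with 1 mouse fewer, 13 kept the call. It was lost without Ref 3, Ref 4, Ref 5, HFoleic 4, HFoleic 5, HFoleic 6 or HFoleic 8, with an adjusted p of up to 0.0843, and without the 4 mice with high testis markers (adjusted p = 0.177). Ebp, the sterol isomerase, changed little in size but with a small spread: 13.65 to 13.91 in Ref mice (median 13.76), 13.97 to 14.38 in HFoleic mice (median 14.15) and 13.72 to 14.11 in HFepa mice (median 13.93). HFoleic mice lay above Ref mice throughout for Ebp, with a log2 fold change of 0.39 ± 0.07 (SE, adjusted p = 0.000949).

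The remaining 4 enzymes of the sterol steps did not pass the test in HFoleic vs. Ref. Fdft1 and Sqle open the branch to sterols. Fdft1, squalene synthase, changed by -0.25 on the log2 scale (adjusted p = 0.458), and Sqle, the monooxygenase that is a known control point of the pathway, had 0.30 (adjusted p = 0.217). The 95% confidence interval for Sqle was -0.07 to 0.68 and that for Fdft1 was -0.76 to 0.25. Cyp51, the demethylase of lanosterol, had 0.13 (adjusted p = 0.551), and its second probe had 0.20. Tm7sf2, a sterol reductase, had 0.18 (adjusted p = 0.449), with values of 10.21 to 11.14 in Ref mice (median 10.56), 10.50 to 11.12 in HFoleic mice (median 10.80) and 10.01 to 10.75 in HFepa mice (median 10.31). Here the overlap of the 3 groups was broad. With the slide as a block Tm7sf2 was called higher (0.26, adjusted p = 0.0413).

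Insig1 and Insig2 encode the paired membrane proteins that hold SCAP in the endoplasmic reticulum, and they moved in opposite directions. The array read them with these 60-base probes, placed by the files on mm9:
Insig1, chr5:28404246-28404305, plus strand: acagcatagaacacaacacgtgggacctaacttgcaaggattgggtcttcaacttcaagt
Insig2, chr1:123201085-123201144, minus strand: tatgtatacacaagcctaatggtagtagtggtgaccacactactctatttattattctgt

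Insig1 ranged from 7.24 to 8.39 in Ref mice (median 7.84), from 8.67 to 10.35 in HFoleic mice (median 9.53) and from 7.91 to 9.32 in HFepa mice (median 8.52). No HFoleic mouse was as low as any Ref mouse, and 5 of the 8 HFepa mice lay below every HFoleic mouse. Insig1 rose 3.25-fold in HFoleic vs. Ref, the largest change among the members in the fit reported (log2 fold change 1.70 ± 0.28, SE, adjusted p = 0.000513). With the processed signal Dhcr7 changed more, by 2.01 against 1.80 for Insig1. Insig2 ranged from 13.17 to 13.53 in Ref mice (median 13.42), from 12.37 to 13.30 in HFoleic mice (median 12.55) and from 12.29 to 13.35 in HFepa mice (median 13.06). Of the 6 HFoleic mice, 5 lay below every Ref mouse, while HFoleic 1, at 13.30, lay among them. Insig2 was 1.69-fold lower (log2 fold change -0.76 ± 0.16, SE, adjusted p = 0.00219). All 3 of its probes were called lower, with log2 fold changes from -0.76 to -0.71.

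**Figure D2:**
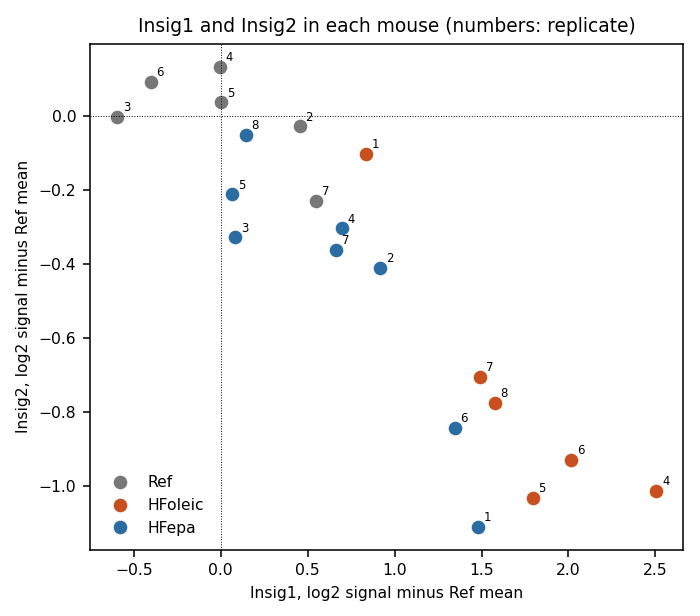
Insig1 (x axis) against Insig2 (y axis) in each mouse, both as log2 signal minus the mean of the Ref group, coloured by group and numbered by replicate. HFoleic 4, 5, 6, 7 and 8 and HFepa 1 and 6 lie at the lower right, and HFoleic 1 lies with the other HFepa and the Ref mice.

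Srebf2 encodes SREBP2 itself. Its values were 9.77 to 10.03 in Ref mice (median 9.93), 10.02 to 10.52 in HFoleic mice (median 10.13) and 9.54 to 10.26 in HFepa mice (median 9.99). The log2 fold change in HFoleic vs. Ref was 0.25 ± 0.11 (SE, adjusted p = 0.0799). It passed the test with median centring in place of quantile normalization (adjusted p = 0.0318), in a fit to the compared groups alone (adjusted p = 0.035) and without HFepa 5 (adjusted p = 0.0461). The second, dimmer probe of Srebf2 had 0.15 (adjusted p = 0.294 in limma) in HFoleic vs. Ref. Of the other genes of SREBP2 control, Mbtps1, the site-1 protease, had 0.00 with a 95% confidence interval of -0.16 to 0.16, Mbtps2, the site-2 protease, had -0.07 with -0.21 to 0.06, and Scap had -0.09 with -0.25 to 0.06. Stard4, a carrier of sterol between membranes, had 0.17 with -0.13 to 0.47, and 0.38 (adjusted p = 0.0493) without the 4 mice with high testis markers. None of these 4 genes passed the test, and the intervals say how large a change in either direction the data still allow.

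**Figure D3:**
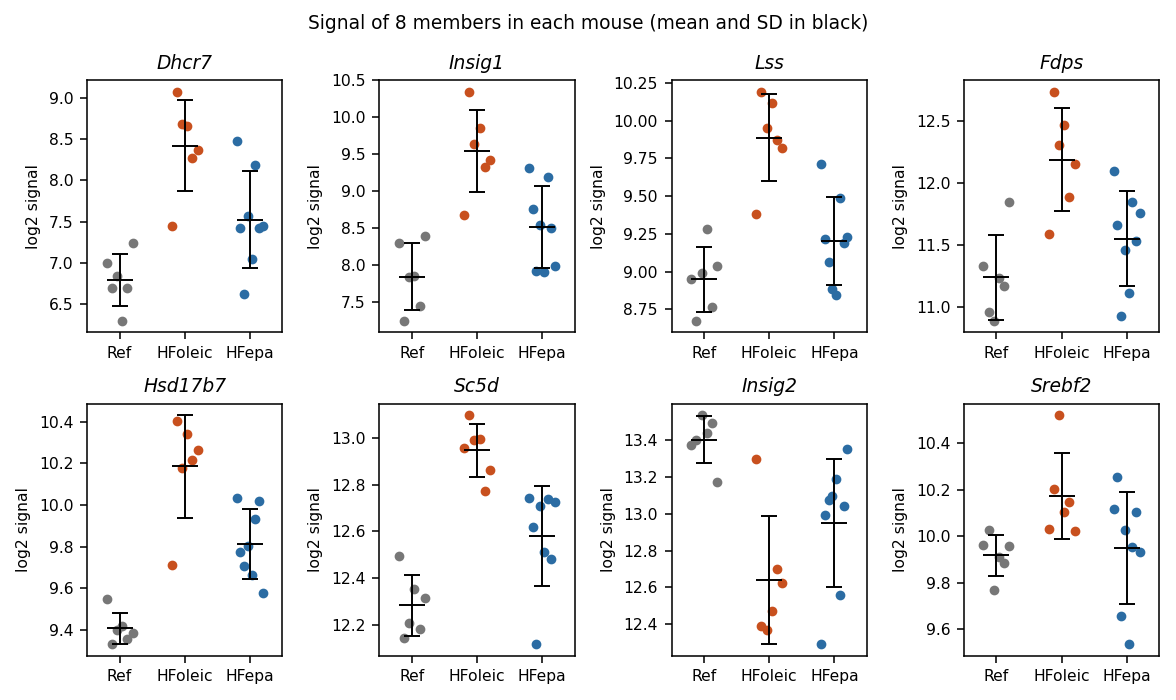
Log2 signal of 8 members in each mouse of the Ref, HFoleic and HFepa groups. Points are mice, and black lines give the mean and SD of the group. Each panel has its own range. HFoleic mice lie above Ref mice for Dhcr7, Insig1, Lss, Hsd17b7 and Sc5d, all but 1 do so for Fdps, and 5 of 6 lie below Ref mice for Insig2.

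More than 1 probe was tested for 18 members, and for 16 of them every probe had a change of the same sign. The exceptions were Hmgcs1 and Mbtps2, neither of which was called. Of the 8 called members with several probes, 6 had every probe called in the same direction. The other two were Lss, where 1 of 3 probes had 0.45 (log2 fold change, adjusted p = 0.0708), and Msmo1, where the dimmest of 3 probes had 0.11 (adjusted p = 0.362). Sc5d had the widest gap between called probes: 0.67 on the brighter probe and 1.38 on the other, with an adjusted p of 0.000366 for the second in limma. No probe of a member that was not called passed the test.

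**Figure D4:**
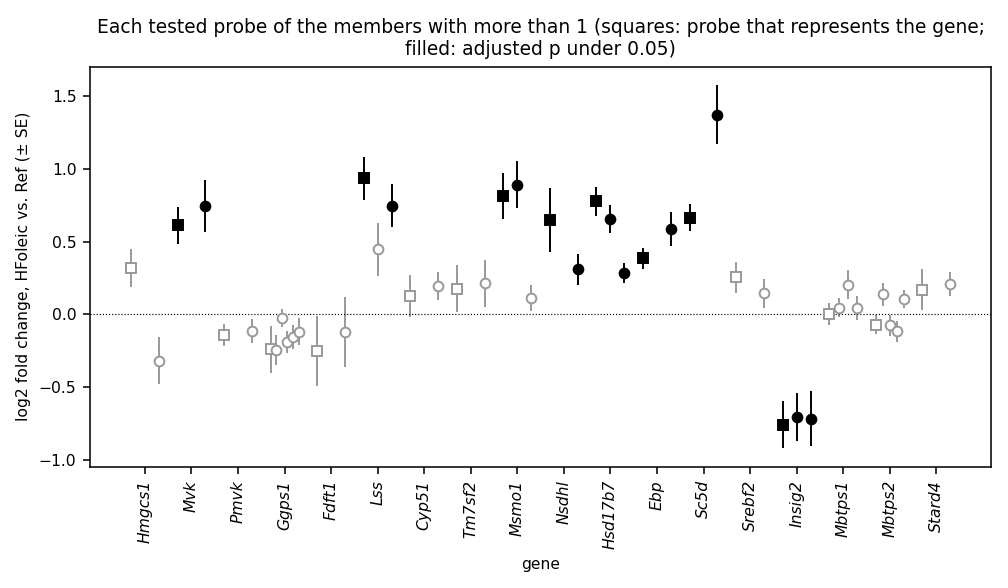
Log2 fold change in HFoleic vs. Ref of each tested probe (y axis, ± SE) for the 18 members with more than 1 tested probe (x axis). Squares are the probes that represent the gene, and filled symbols have an adjusted p under 0.05. The 3 probes of Insig2 lie together between -0.76 and -0.71, and the second probe of Sc5d lies at 1.38.

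In HFepa vs. Ref, the members moved less. Hsd17b7 was called higher (log2 fold change 0.41 ± 0.09, SE, adjusted p = 0.0318), 1.32-fold, and no other member was, where 2.46% of all genes were called. All 8 HFepa mice lay above all Ref mice for Hsd17b7, and the share of all genes without overlap was not counted for this comparison. The call was lost without Ref 3, Ref 4, Ref 5, Ref 6, HFepa 1, HFepa 6 or HFepa 7, without the 4 mice with high testis markers (adjusted p = 0.203), with the processed signal and with the mean of the probes of the gene. Without HFepa 3, by contrast, 4 members were called, Hsd17b7 and also Mvk, Sc5d and Dhcr7, all higher, where 3.41% of all genes were called higher. At an unadjusted p under 0.05, 9 members differed, 7 higher and 2 lower, against 21.6% of all genes. The 7 were Mvk (0.26, log2 fold change), Msmo1 (0.36), Hsd17b7 (0.41), Ebp (0.17), Sc5d (0.30, adjusted p = 0.0742), Dhcr7 (0.73, adjusted p = 0.117) and Insig1 (0.67, adjusted p = 0.159), and the 2 lower were Pmvk (-0.17) and Insig2 (-0.45, adjusted p = 0.107). The median over the 25 members was 0.09, against -0.02 over all genes tested. The log2 fold changes of the others were 0.31 for Fdps, 0.25 for Lss, 0.12 for Hmgcs1, 0.11 for Mvd, 0.10 for Idi1, 0.09 for Stard4, 0.03 for Srebf2 and 0.02 for Sqle. Values below 0 were those of Fdft1 (-0.02), Mbtps1 (-0.03), Nsdhl (-0.06), Cyp51 (-0.07), Ggps1 (-0.08), Mbtps2 (-0.09), Scap (-0.11) and Tm7sf2 (-0.28).

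The third comparison asks how the lineages differ on the same high-fat diet. In HFepa vs. HFoleic no member passed the test, and neither did the probe that represents any other gene (0% of those tested). At an unadjusted p under 0.05 14 members differed, all of them lower in HFepa mice, against 20.8% of all genes in either direction and 10.0% of all genes lower. Of the 25 members, 22 had a value below 0, with a median of -0.28 against 0.01 over all genes tested. The largest differences were those of Insig1, -1.03 ± 0.27 (SE, adjusted p = 0.117), Dhcr7, -0.89 ± 0.26 (adjusted p = 0.12), and Nsdhl, -0.71 ± 0.21 (adjusted p = 0.121), all as log2 fold changes from limma. Next came Lss (-0.68), Fdps (-0.64), Msmo1 (-0.45), Tm7sf2 (-0.45), Mvd (-0.43), Idi1 (-0.42), Hsd17b7 (-0.37), Sc5d (-0.37), Mvk (-0.35), Srebf2 (-0.22) and Ebp (-0.22). These values are those of the brightest probes. Dimmer probes of Nsdhl (-0.13), Msmo1 (-0.16) and Srebf2 (-0.08) had the same sign but no unadjusted p under 0.05. Every other tested probe of these 14 members had an unadjusted p under 0.05 in limma, with the same sign. For Sc5d all 8 HFepa mice lay below all HFoleic mice, the only member without overlap here. The share of all genes without overlap was not counted for this comparison, so this separation has no background beside it. Insig2 differed by 0.31 (adjusted p = 0.262), Fdft1 0.23 and Ggps1 0.16. The remaining 8 lay between -0.28 and -0.01: Sqle (-0.28), Hmgcs1 (-0.20), Cyp51 (-0.20), Stard4 (-0.08), Mbtps1 (-0.03), Pmvk (-0.02), Scap (-0.01) and Mbtps2 (-0.01).

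**Figure D5:**
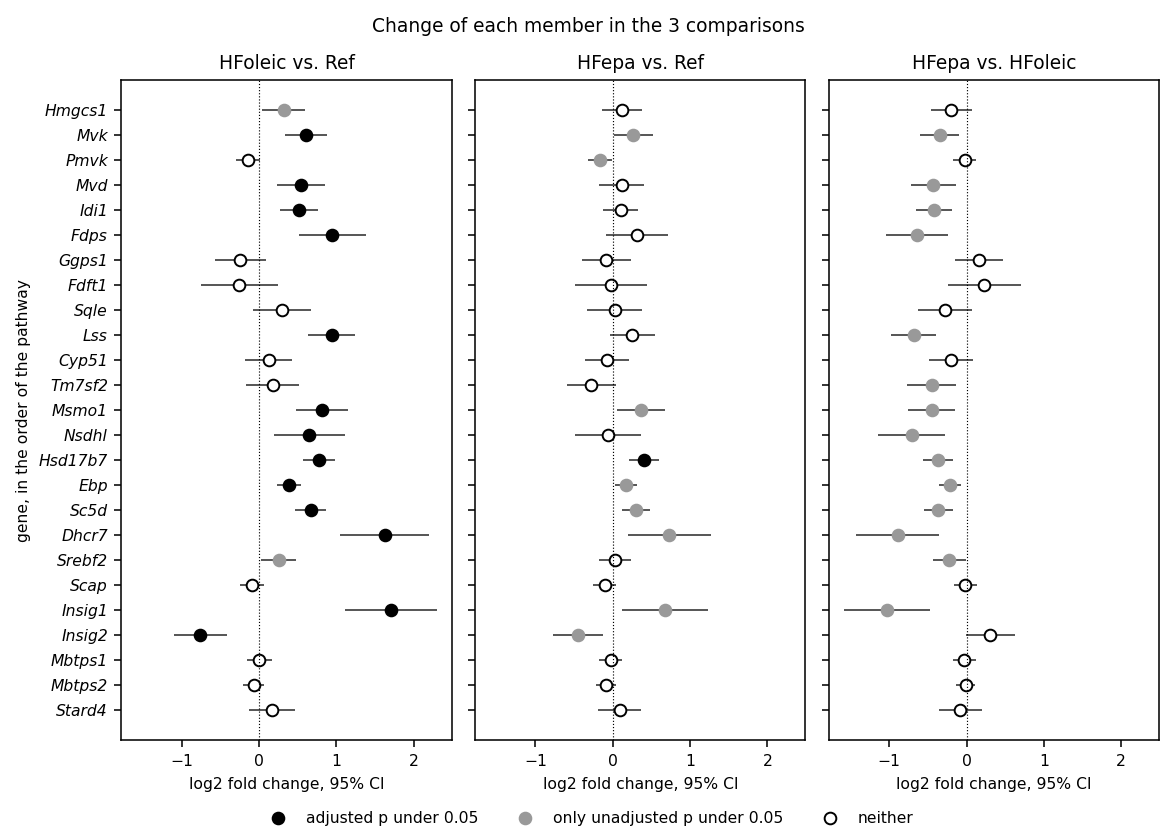
Log2 fold change of each of the 25 tested members (y axis, in the order of the pathway) in the 3 comparisons, with 95% confidence intervals as lines. Black points have an adjusted p under 0.05, grey points only an unadjusted p under 0.05, and open points neither. There are 13 black points in HFoleic vs. Ref, 1 in HFepa vs. Ref and none in HFepa vs. HFoleic, where the 14 grey points all lie below 0.

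The lack of calls between the lineages turned on single mice and on the slide. Without HFoleic 1, 11 members were called, all lower in HFepa mice, where 1.92% of all genes were called lower in the same fit. Without HFepa 1 it was also 11, against 4.62% of all genes. With the slide as a block in the fit 8 members were called lower, against 1.48% of all genes: Idi1, Fdps, Lss, Tm7sf2, Nsdhl, Hsd17b7, Sc5d and Insig1, the last by -1.15 on the log2 scale (adjusted p = 0.0313). The order of the group means was Ref, HFepa, HFoleic from low to high for 11 of the 12 members that rose, the exception being Nsdhl, whose HFepa mean lay below the Ref mean. For Insig2 the order was the reverse. HFepa vs. Ref and HFepa vs. HFoleic share the HFepa mice with each other, and each shares a group with HFoleic vs. Ref, so these orders are no independent evidence.

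Within each of the 3 slides, which hold mice of all groups, all 13 members called in HFoleic vs. Ref had a difference of the same sign as in the whole. Insig1 differed by 1.55, 2.23 and 1.85 on slides 1, 2 and 3 on the log2 scale, Dhcr7 by 1.31, 2.30 and 1.71, and Insig2 by -0.59, -0.92 and -0.98. Slide 2 holds only 1 HFoleic mouse, number 4, which was the highest of its group for all 12 members that rose.

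The mice of a group differed among themselves in a way that many members shared. As a description only, since the 12 members were picked by this comparison, the median over them of the difference from the Ref mean was 0.36 in HFoleic 1, against 0.65 to 1.07 in the other HFoleic mice. HFoleic 1 was the lowest of its group for 11 of the 12. In HFepa mice the same median ran from -0.15 in HFepa 3, the lowest of its group for 8 of the 12, to 0.66 in HFepa 1, the highest for 9. HFepa 6 followed with 0.50.

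Markers of macrophages also differed between the groups and, in part, between mice of a group, as these values did. All 8 tested markers of lipid-associated macrophages and 9 of 12 general macrophage markers were higher in HFoleic vs. Ref. Over all genes tested, 15.2% were higher and 16.7% lower in this comparison, beside which the counts of markers stand. The mean log2 signal over the 8 was 8.83 to 10.04 in Ref mice (median 9.47), 11.79 to 13.50 in HFoleic mice (median 13.05) and 9.44 to 13.91 in HFepa mice (median 10.82). HFoleic 1 had the lowest value of its group, 11.79, HFepa 3 the lowest of the HFepa mice, 9.44, and HFepa 1 and HFepa 6 the highest, 13.91 and 13.07. For the 12 macrophage markers, the ranges were 11.16 to 11.64, 11.96 to 13.04 and 11.07 to 12.98. The lowest value of all mice, 11.07, was that of HFepa 8, whose median over the 12 members that rose was 0.32 above the Ref mean. Every marker counted here had passed the filter on dim probes. Trem2, a receptor of lipid-associated macrophages, rose by 4.22 in HFoleic vs. Ref on the log2 scale and Adgre1, which encodes F4/80, by 2.27. The median log2 fold change was 3.69 over the 8 markers and 1.07 over the 12, of which 2 had a value below 0. Of the 10 adipocyte markers 4 were lower in HFoleic vs. Ref, Cfd (-0.50), Retn (-0.65), Pnpla2 (-0.42) and Lipe (-1.19), all as log2 fold changes. Of 8 markers of adipose stem cells and fibroblasts 4 were higher. Among HFoleic mice, the mean over these 8 was lowest in HFoleic 1 (13.03) and highest in HFoleic 4 (13.75). That over the 10 adipocyte markers was highest in HFoleic 1 (17.10) and lowest in HFoleic 4 (16.51). The part of these cells in the change of the members was not tested. For T cells 1 of 6 markers was higher in HFoleic vs. Ref and for testis 1 of 4 was lower, while no marker of B cells (5 tested), endothelium (6), mesothelium (5), liver (6) or epididymis (2) was called.

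Genes next to the pathway were counted by lists. Insig proteins also recruit the ubiquitin ligases that degrade sterol-sensing enzymes. Of 12 genes of this degradation and of SREBP maturation, 3 were lower and 1 higher in HFoleic vs. Ref. Among those that fell were Rnf139 (log2 fold change -0.25, adjusted p = 0.00475), such a ligase, and Ube2g2 (-0.23), a ubiquitin-conjugating enzyme. Erlin2 (0.39), part of a scaffold in the same membrane, rose. Of 12 enzymes that use isoprenoids, Nus1, a subunit of the enzyme that makes the dolichol chain, rose (0.37) and Rabggtb, which prenylates Rab proteins, fell (-0.27). These counts, 4 of 12 and 2 of 12, stand against 31.8% of all genes called in this comparison.

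Of 17 genes of cholesterol uptake, transport and storage, 6 rose in HFoleic vs. Ref and none fell, where 15.2% of all genes rose. Soat1, which esterifies cholesterol for storage, rose by 1.87 on the log2 scale (adjusted p = 0.0024), and Lipa, the acid lipase that frees cholesterol in lysosomes, by 1.51 (adjusted p = 0.00447). Npc2 (0.57), which binds that cholesterol, Tmem97 (0.90), a partner of NPC1, Vldlr (0.77), a lipoprotein receptor, and Stard5 (0.28), a sterol carrier, rose as well. Genes of fatty acid synthesis, which are controlled mainly by SREBP1, were called in both directions. Of 11, 3 fell and 1 rose, where 31.8% of all genes were called: Acacb (-1.83), Acaca (-1.37), the acetyl-CoA carboxylases, and Elovl6 (-0.73), an elongase, were lower, and Scd2 (2.12), a desaturase, was higher. In HFepa vs. Ref, 1 gene of these 4 lists was called, Acaca (-0.81, adjusted p = 0.036), where 2.46% of all genes were called. In HFepa vs. HFoleic no gene of the lists was called, as was true of all genes.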

How the data were processed

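RNA of epididymal fat was hybridised by the authors to Agilent mouse arrays (Cy3) and read with Agilent Feature Extraction 10.10.1.1, with 1 array per mouse. The deposited scanner files give intensity per spot, from which the median signal was taken. The authors also deposited log2 values after filtering and quantile normalization, which served as an alternative and correlated with the values used here at 0.99998 or more on every array.

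From the deposited median signal, marked spots were set to missing (24 values of tested probes), log2 was taken, arrays were quantile-normalized and spots of a probe averaged. Probes well above background on at least 6 arrays were kept (39390 of 56605). limma 3.58.1 (R 4.3.3) fitted a mean per group over all 20 arrays, with empirical Bayes and Benjamini-Hochberg adjustment over all tested probes. An adjusted p under 0.05 was called. The steps were tested on simulated data. A gene is represented by its tested probe with the highest mean. Every member is accounted for. Values over the mice are given in full for called members (at most 12, by the size of the change in HFoleic vs. Ref), for a called member that moved against the majority, and for members with an unadjusted p under 0.05 in HFepa vs. HFoleic; genes of other lists are named where called, apart from cell type markers, of which some were chosen after their values were seen. The members and lists were chosen with earlier results of these data known. Groups and replicate numbers come from the labels. Replicates are separate arrays per the labels, so p-values measure the spread between these samples. The slide was read from the array barcode.

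Alternatives were another signal, background correction, scaling, filter, block, variance prior, choice of arrays or probe, each mouse left out in turn, and, added after seeing the data, the 4 mice with testis signal left out together (mean log2 signal of the markers above 8). Promoter windows are from RefSeq (GRCm38.p6), and probe positions (mm9) are from the scanner files. Proteins were not used here. The values of 1 gene of the other lists are not reported here.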

Additional observations from a re-analysis of the deposited data

Results flagged for a closer look

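In 11 of the 75 combinations of a member and a group, 1 mouse stood apart from its group in log2 signal (Dixon's test, 95% level). Chance would give about 1 in 20 for independent combinations. The same mice recur over the members, so the combinations are not independent, and the count is no test of an excess. HFoleic 1 stood apart for Hsd17b7 (9.71, nearest mouse 10.18), Insig2 (13.30, nearest 12.70) and Mbtps2 (9.56, nearest 9.72). HFepa 3 stood low for Mvk (11.69, nearest 12.22), Nsdhl (8.58, nearest 9.23) and Sc5d (12.12, nearest 12.48). In the Ref group, Ref 7 stood high for Pmvk (13.46, nearest 13.20) and Nsdhl (10.22, nearest 9.52), Ref 5 for Cyp51 (9.94, nearest 9.44) and Ref 6 for Scap (12.24, nearest 12.01). HFoleic 5 stood high for Srebf2 (10.52, nearest 10.20).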

How the results depend on the processing

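In HFoleic vs. Ref 13 members were called, and 11 to 15 under the 13 other settings, where 18.1% to 35.5% of all genes were called. The added one, without the mice with testis signal, gave 12. Leaving out 1 mouse gave 12 (without Ref 3) to 14 (without HFoleic 7), with a median log2 fold change of 0.25 to 0.42. Of all genes, 25.9% (without HFoleic 4) to 34.6% (without HFoleic 1) were called in these fits. In HFepa vs. Ref the count of 1 became 0 with the processed signal (1.78% of all genes called) and with the replicate block (0.0664%). It also became 0 with the mean of the probes of a gene (2.39%) and without the mice with testis signal (0%). The count was 0 to 4 with 1 mouse left out, the 4 without HFepa 3 (7.03% of all genes called). In HFepa vs. HFoleic the count of 0 became 8 with the slide as a block, where 3.17% of all genes were called, and was 0 to 11 with 1 mouse left out. It was 11 without HFoleic 1 (4.36% of all genes called) and without HFepa 1 (7.72%). The cause was not tested.

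The deviations from the group means of the 16 same-number pairs of mice correlated at -0.587 to 0.559 (median -0.083), with 5 pairs over 0.1. The 116 pairs of different number had -0.481 to 0.798 (median 0.006), with 45 over 0.1. These correlations show no pairing by replicate number and cannot exclude one. With the replicate block 11, 0 and 0 members were called in the 3 comparisons, where 21.1%, 0.0664% and 0% of all genes were called. Mvd (adjusted p = 0.0807) and Nsdhl (adjusted p = 0.0696) were lost in HFoleic vs. Ref by limma in that fit.

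Signs turned for members near 0. In HFoleic vs. Ref, Mbtps1 was -0.023 with the replicate block and -0.0094 without the mice with testis signal, which also turned Tm7sf2 to -0.024. In HFepa vs. Ref, Fdft1 was 0.0055 with the processed signal and 0.0097 with median centring, Mbtps1 was 0.0069 with normexp, Ggps1 was 0.055 without the mice with testis signal, and Hmgcs1 was -0.059 and Nsdhl 0.058 with the mean of the probes. In HFepa vs. HFoleic, Mbtps1 was 0.0011 with the replicate block. With 1 mouse left out, Mbtps1 ranged from -0.036 to 0.047 in HFoleic vs. Ref, from -0.052 to 0.0040 in HFepa vs. Ref and from -0.075 to 0.0084 in HFepa vs. HFoleic. In HFepa vs. Ref the ranges were -0.108 to 0.151 for Fdft1, -0.072 to 0.131 for Sqle, -0.130 to 0.031 for Cyp51, -0.132 to 0.082 for Nsdhl and -0.014 to 0.088 for Srebf2. In HFepa vs. HFoleic they were -0.057 to 0.021 for Pmvk, -0.038 to 0.021 for Scap and -0.048 to 0.0055 for Mbtps2. None of these was called in the fit reported, apart from Nsdhl in HFoleic vs. Ref, where its sign held.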
